A study of Mus musculus with 59 samples.

Results

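The left ventricle of sham-operated mice was compared at 8 weeks and at 1 week after surgery. The 6 arrays were chosen by their titles, 3 at 8 weeks and 3 at 1 week, out of 59 in the study, and all genes on the array were compared. The study profiled total RNA from mouse ventricle on Affymetrix oligonucleotide arrays after a myocardial infarction or a sham operation, at 1 h, 4 h, 24 h, 48 h, 1 week and 8 weeks. Sham-operated mice underwent surgery without an infarct, and the pieces used here came from the upper ventricle, above the left anterior descending coronary artery. The other groups used here were 12 upper arrays of sham mice at the 4 times from 1 h to 48 h, 1 array of the lower ventricle of a sham mouse at 1 week, and 6 arrays of the remote ventricle, the tissue above the artery in infarcted mice, at 1 and 8 weeks. The strain, sex and age of the mice were not stated in the sources used. Each title ends in a number that was read as naming the mouse. In ascending order of that number the 8 week arrays are called A, B and C and the 1 week arrays D, E and F, and values are given in that order.

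The 2 times span the settling of the ventricle after an operation in which no vessel stays blocked, together with 7 further weeks of life. The ventricular wall holds cardiomyocytes, which supply most of its RNA, beside endothelial cells, fibroblasts, pericytes and resident macrophages. Cells throughout the body carry major histocompatibility complex (MHC) class I on their surface, whereas class II is made by antigen-presenting cells and is induced elsewhere by interferon gamma. That cytokine also switches on a family of immunity-related GTPases, which defend cells against intracellular pathogens.

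The 6 arrays differed in their dim signals before any gene was considered. Array medians were 188, 184.5 and 192.8 at 8 weeks and 156.9, 160.55 and 164.15 at 1 week, and the other 12 upper sham arrays ran from 163.45 to 190.3. The 10th percentile of intensity was 15.7, 15.1 and 16.2 at 8 weeks against 11.1, 10.87 and 10.4 at 1 week. The groups did not overlap in either measure (exact two-sided permutation p = 0.1 for each, the smallest that 3 arrays against 3 allow). The median of the yeast control probe sets, which match no mouse transcript, was 49.25, 20 and 36.55 at 8 weeks and 17.15, 8.55 and 14.5 at 1 week. The ratio of 3′ to 5′ Gapdh signal, a sign of RNA integrity, was 0.808 to 0.847 at 8 weeks and 0.838 to 0.878 at 1 week (log2 difference -0.05, exact permutation p = 0.2). The same ratio for beta-actin was 1.76 on array D and 1.23 to 1.38 on the other 5 arrays, so D stood apart. Across genes the arrays correlated at 0.976 to 0.986 within a time and at 0.958 to 0.972 between the times. Xist stayed at or below 38.3 on all 18 upper sham arrays. Of Y-linked genes, Eif2s3y ranged from 217.2 to 713.2 and Uty from 99.5 to 215.3. Kdm5d stayed at or below 39.3 and Sry at or below 64.8. The sex of the mice was not inferred from these values. The title numbers of the groups do not overlap either, so the set of mice, their age and the time since surgery cannot be told apart.

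Of 6670 genes tested, 502 were higher at 8 weeks (7.53%) and 203 were lower (3.04%), together 10.6%, at an adjusted p below 0.05 in limma with Benjamini-Hochberg adjustment. The change reached 2-fold in 50 of the higher and 15 of the lower genes. Changes are given on the log2(intensity + 45.6) scale, 8 weeks minus 1 week, with their standard error (SE), and a fold on this scale understates the change of dim genes. Without array C the share of genes called fell from 10.6% to 2.4%. It was 5.82% without A, 5.76% without D, 4.56% without E and 5.47% without F, and 7.75% without B. Without B the share of lower genes alone fell to 1.84%. All 3 arrays of 8 weeks lay above all 3 of 1 week for 1491 genes (22.4%) and below them for 1050 (15.7%). Tissue pieces hold mixed cells, so for every gene, fewer cells of a type and less RNA per cell cannot be told apart.

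Rises were more frequent among dim genes and falls among bright ones. With the genes split into 5 equal sets by intensity, the median change was 0.19 in the dimmest set and -0.10 in the brightest. The dimmest set held 84 rises and 13 falls, and the brightest held 43 rises and 90 falls. After quantile normalization, which gives every array the same distribution of intensities, 226 genes were higher (3.41%) and 190 lower (2.86%), together 6.27%. Rises then made up 54.3% of the calls, where they had been 71.2%. Of the 502 higher genes 220 were called again in that direction (43.8%), and of the 203 lower genes 124 (61.1%). Quantile normalization moved the median change of all genes by -0.07. Among 261 genes read by probe sets whose number begins with 16 and whose suffix holds a letter, which marks probes shared with other transcripts or chosen under relaxed rules, 76 were higher (29.1%) and 0 lower. The genes read by such probe sets include Atp5g1, Gadd45b, Ddx27, Thyn1, Bmp2, Kcnq1, Mki67, Lig1 and Plg, which are named below. Among 5817 genes read by probe sets without such a letter 6.33% were higher. The part of signal level and probe design in these counts was not tested. Of the 83 named genes that passed, 23 did so in every alternative tried, including those that leave out 1 array. These were Hand1, Scx, Igtp, Irgm2, H2-T18, H2-Aa, H2-K1, Ciita, Kif4, Atp5g1, Gpx1, Asns, Canx, Igf1, F7, Klf2, Nup54, Fzd2, Get4, Fah, Ier3, Ctsa and Ei24. Each of the others among the 83 lost its call in at least 1 alternative, and so did Irgm1, B2m, Cd74, H2-K2, H2-Q5, H2-Bl and Ghr, which are not among them.

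**Figure D1:**
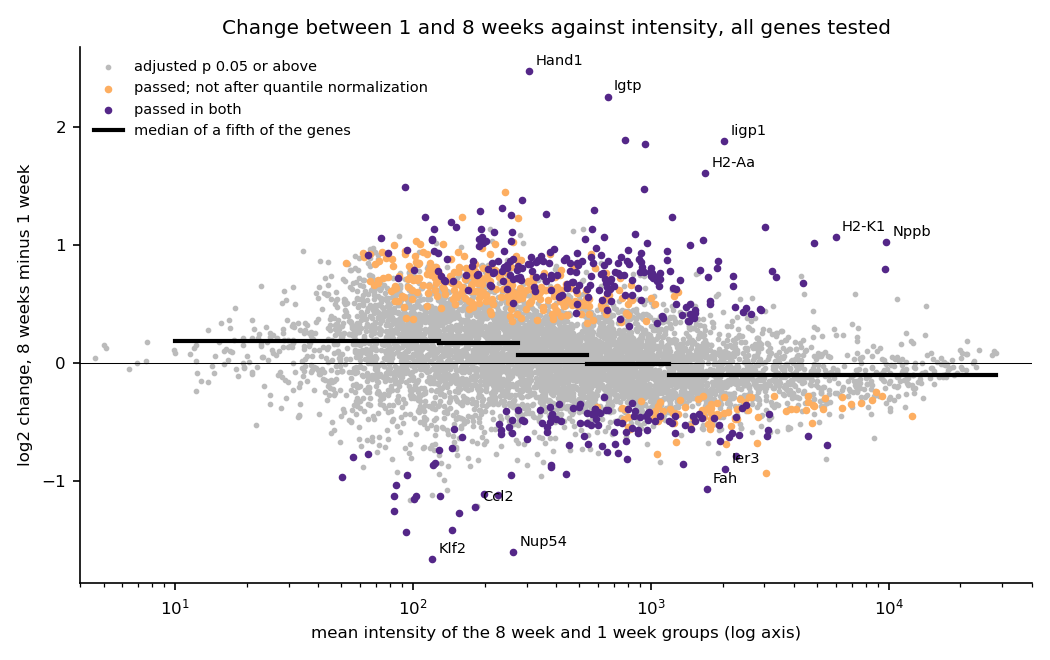
Each point is 1 of the 6670 genes, with its mean intensity over the 8 week and 1 week groups on a log axis and its log2 change (8 weeks minus 1 week) on the vertical axis. Purple genes passed with and without quantile normalization, orange genes passed only without it, and the black bars, the medians of the 5 sets of genes by intensity, run from 0.19 on the left to -0.10 on the right.

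Of 5 immunity-related GTPase genes looked at after their values were seen, Igtp, Irgm2, Iigp1 and Irgm1 rose, and Ifi47 did not pass (0.19 ± 0.44, adjusted p = 0.825). Igtp, which interferon gamma induces, read 1142.9, 1019.9 and 1189.8 on the arrays of 8 weeks and 169.1, 177.4 and 253.1 on those of 1 week. The groups lay far apart, with a change of 2.26 ± 0.45 (SE, n = 3 per group), or 4.78-fold (adjusted p = 0.00233). At the other 4 sham times Igtp ranged from 110.3 to 470.1 over 12 arrays, so only the 8 week arrays were high. Irgm2 read 1483.6, 1568.2 and 1456.6 at 8 weeks and 429.7, 329.8 and 392.8 at 1 week. Its change was 1.86 ± 0.39, 3.62-fold (adjusted p = 0.00331), and its 12 arrays from 1 h to 48 h ran from 303.5 to 797.8. Iigp1 read 3590.9, 3029.6 and 2967.8 against 822.7, 565.6 and 1232.3. It rose by 1.88 ± 0.56 (adjusted p = 0.027). A second probe set of Iigp1 changed by 1.95 ± 0.48, but the call on the gene was lost when any array other than F was left out (adjusted p up to 0.12). Irgm1 read 388.2, 424.6 and 302.1 against 174.8, 153.7 and 220.9, again without overlap. Its change of 0.87 ± 0.27 had an adjusted p of 0.0337, or 0.0879 after quantile normalization, and was lost when any array other than F was left out (adjusted p up to 0.124). Igtp, Irgm2 and Iigp1 also differed between 8 weeks and the mean of the 4 times from 1 h to 48 h (changes of 2.26, 1.65 and 1.76, adjusted p = 0.000394, 0.00316 and 0.0433). That comparison shares the 8 week arrays and called 0.45% of genes higher.

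The upstream sequences of Igtp, Irgm2 and Irgm1 are shown because they hold the letters of interferon-responsive elements close to the gene start, as are those of B2m and H2-Aa, members of the MHC group. Each is the 250 bases before the start, from RefSeq on build GRCm38.p6, 5′ to 3′ on the strand of the gene, with matches in capitals. Igtp lies at chr11:58199306-58199555 on the plus strand, Irgm2 at chr11:58214727-58214976 on the plus strand and Irgm1 at chr11:48871421-48871670 on the minus strand. B2m lies at chr2:122147437-122147686 on the plus strand and H2-Aa at chr17:34287824-34288073 on the minus strand.
Igtp: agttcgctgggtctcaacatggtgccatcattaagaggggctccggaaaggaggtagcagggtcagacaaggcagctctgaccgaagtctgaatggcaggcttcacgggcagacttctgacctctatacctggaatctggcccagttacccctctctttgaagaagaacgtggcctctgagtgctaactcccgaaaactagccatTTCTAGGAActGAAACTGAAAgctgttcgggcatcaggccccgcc
Irgm2: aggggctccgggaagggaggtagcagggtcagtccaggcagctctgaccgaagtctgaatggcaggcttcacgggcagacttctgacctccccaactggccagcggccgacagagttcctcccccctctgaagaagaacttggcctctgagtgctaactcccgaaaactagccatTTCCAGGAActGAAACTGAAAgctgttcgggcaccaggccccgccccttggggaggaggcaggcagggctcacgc
Irgm1: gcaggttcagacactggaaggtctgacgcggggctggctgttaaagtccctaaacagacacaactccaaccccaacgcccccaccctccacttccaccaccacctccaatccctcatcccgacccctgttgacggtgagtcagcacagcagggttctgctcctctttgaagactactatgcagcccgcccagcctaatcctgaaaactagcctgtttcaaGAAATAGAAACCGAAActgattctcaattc
B2m: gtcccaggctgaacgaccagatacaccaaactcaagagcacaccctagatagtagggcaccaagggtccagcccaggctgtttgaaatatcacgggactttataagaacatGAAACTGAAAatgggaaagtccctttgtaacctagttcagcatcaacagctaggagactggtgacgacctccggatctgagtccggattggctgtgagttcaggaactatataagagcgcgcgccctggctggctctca
H2-Aa: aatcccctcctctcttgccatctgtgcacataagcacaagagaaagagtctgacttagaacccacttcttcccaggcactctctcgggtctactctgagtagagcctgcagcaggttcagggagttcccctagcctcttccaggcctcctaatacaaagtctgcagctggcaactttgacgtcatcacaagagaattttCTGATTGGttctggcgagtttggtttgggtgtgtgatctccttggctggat

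Both strands were searched for the interferon-stimulated response element (GAAA and a further GAAA with any 2 bases between them), TTCNNNGAA (the gamma-activated sequence) and CTGATTGG (the Y box of class II genes). These letters occur in 2.98%, 7.02% and 3.83% of the same windows of 32851 promoters. Igtp holds GAAACTGAAA at -34 to -25 and TTCTAGGAA at -45 to -37, counted from the gene start. Irgm2, whose window lies 15421 bases further along the chromosome, holds GAAACTGAAA at -64 to -55 and TTCCAGGAA at -75 to -67. Irgm1 holds 2 overlapping matches to the response element, at -30 to -21 and -24 to -15. B2m holds GAAACTGAAA at -139 to -130, and H2-Aa holds the Y box at -51 to -44. The Y box also occurs in H2-Eb1 at -62 to -55 and, on the other strand, in Tap1 at -222 to -215. Of 15 genes looked for, 10 had a promoter entry, which Iigp1, H2-Ab1, Cd74, Ciita and Hand1 did not. Nppb and Igf1 held none of the 3 motifs in this window. Nor did the first of 2 entries of H2-K1, the only one of that gene searched. A match describes the letters and is no evidence of a bound factor.

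MHC genes rose with the GTPases, in class I and class II. Of 13 measured members of the MHC list, 6 were higher, beside 7.53% of all genes, and 0 were lower. The median change of the 13 was 0.77, against 0.04 for all genes tested, and the lowest was 0.38. H2-Aa, the class II alpha chain, read 2692.1, 2533.8 and 2418.1 at 8 weeks and 579.4, 760.5 and 1172.8 at 1 week. It rose by 1.61 ± 0.37, 3.05-fold (adjusted p = 0.00563), and the highest of its 12 arrays from 1 h to 48 h read 1834.1. Its partner chain H2-Ab1 read 891.2, 926 and 676.7 against 212, 280 and 484.5 (change 1.30 ± 0.34, adjusted p = 0.0146). Cd74, the invariant chain that guides class II through the cell, read 4110.9, 4011.7 and 4353.4 against 1368.1, 1871.3 and 2442.3 (1.15 ± 0.34, adjusted p = 0.0261). Array F was the highest of the 1 week arrays for each of these class II genes, and no 1 week array reached an 8 week one. Ciita, the master activator of class II transcription, was dim and read 180.3, 160.3 and 194.1 against 81.8, 84.1 and 114.8. It rose by 0.69 ± 0.15 (adjusted p = 0.00507).

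H2-K1, a classical class I heavy chain, read 7880.4, 7714.2 and 8593.4 at 8 weeks and 3165, 3607.1 and 4870.3 at 1 week. The change was 1.07 ± 0.20, 2.1-fold (adjusted p = 0.00189), and 2 further probe sets of the gene changed by 1.17 each. B2m, the light chain of every class I molecule, read 11699.2, 12411.4 and 12405.9 against 6922.8, 5879.6 and 8377.9 (0.80 ± 0.22, adjusted p = 0.0185). Tap1, which pumps peptides to class I, read 614.8, 493.5 and 491.7 against 244.1, 212.6 and 295.4 (0.97 ± 0.26, adjusted p = 0.0144). H2-T18, a non-classical class I gene outside the list, read 1366.2, 884.2 and 1395.9 against 98.9, 444.6 and 476. It changed by 1.89 ± 0.36 (adjusted p = 0.00189). The 12 early arrays ran from 282.7 to 1357.5, and 1 week differed from their mean by -1.50 (adjusted p = 0.00424), whereas 8 weeks had 0.39 (adjusted p = 0.529). H2-K2, H2-Q5 and H2-Bl, class I genes named after their values were seen, changed by 1.02, 1.04 and 1.02 (adjusted p = 0.00839, 0.0144 and 0.0106). Other class I genes did not pass on their brightest probe set, with 0.74 for H2-D1 (adjusted p = 0.0654) and 0.64 for H2-Q10 (adjusted p = 0.069). The 2 further probe sets of H2-D1 rose by 1.20 and 1.30 and passed (adjusted p = 0.00893 and 0.00144 with every probe set tested). In class II, H2-Eb1 had 0.82 (adjusted p = 0.166) and H2-DMa 0.77 (adjusted p = 0.113), neither of which passed. Probe sets of class I genes share sequence with their paralogs, so these rises cannot be assigned to single heavy chains. The count of 6 MHC genes held after quantile normalization, was 9 with the 18 upper sham arrays alone (where 8.31% of all genes were higher and 3.16% lower), and fell to 3 without array D or E. H2-Ab1 was among those lost in both cases.

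Of 32 measured members of the interferon-induced list 4 were higher (Igtp, Iigp1, Irgm1 and Tap1), 12.5% beside 7.53% of all genes, and 0 were lower. The median change was 0.21, against 0.04 for all genes. After quantile normalization 3 passed. The count was 7 in a fit of the 6 arrays alone (8.61% of all genes), 1 without array A or E, and 2 without B, C or D. In those 5 fits 4.3%, 3.57%, 5.91%, 1.93% and 4.32% of all genes were higher, for A, E, B, C and D in turn. Psmb8 and Psmb9, immunoproteasome subunits, had arrays that did not overlap, with changes of 0.66 and 0.80 that did not pass (adjusted p = 0.107 and 0.136). Isg15, a ubiquitin-like protein that type I interferon induces strongly, read 261.1, 315 and 242.4 at 8 weeks against 381.2, 375.5 and 450.9 at 1 week. Its arrays did not overlap either, and the change of -0.50 did not pass (adjusted p = 0.315). Ifit1, Ifit3 and Usp18, of the same response, had changes of -0.34, -0.36 and -0.71 that did not pass (adjusted p = 0.475, 0.461 and 0.121). Irf1 had 0.38 (adjusted p = 0.386) and Irf7 0.78 (adjusted p = 0.0774). Ifi27l2a, an interferon-induced gene outside the list, was lower at 8 weeks, at 305.4, 229.2 and 228 against 530.6, 458.5 and 528.8. Its change was -0.89 ± 0.27 (adjusted p = 0.0366 with every probe set tested).

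**Figure D2:**
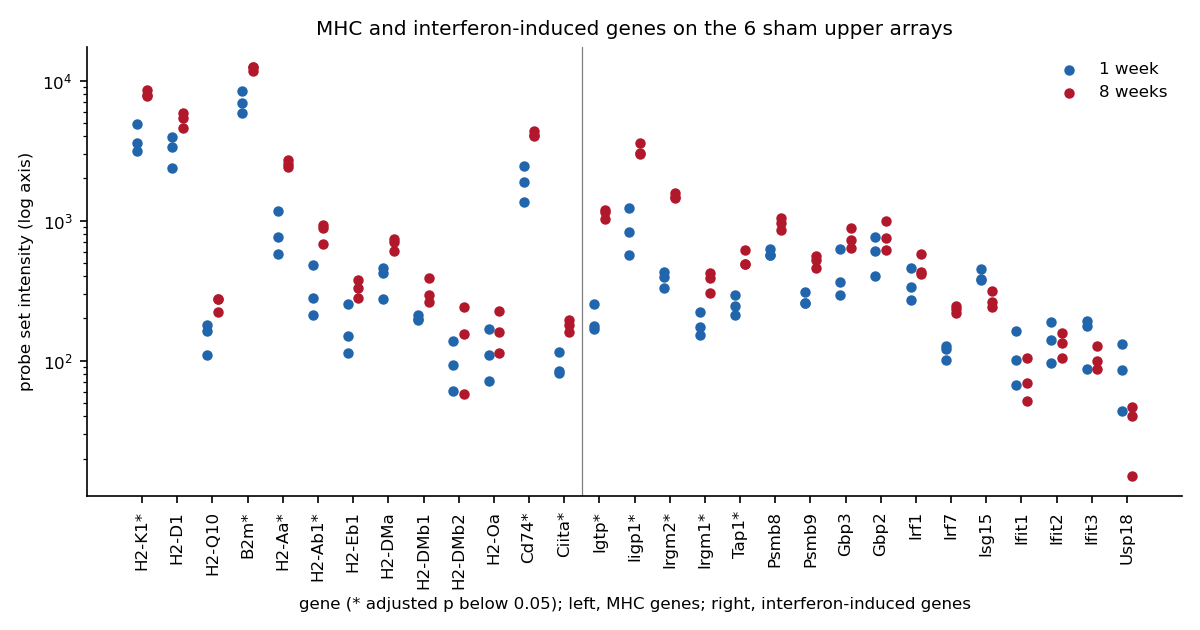
Intensity on a log axis of MHC genes (left of the line) and interferon-induced genes (right of it) on the 3 arrays of 1 week (blue) and the 3 of 8 weeks (red), with an asterisk where the adjusted p was below 0.05. The 8 week arrays of Igtp, from 1019.9 to 1189.8, lie far above those of 1 week, whereas Isg15 and Ifit1 do not rise.

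Marker lists of immune cells were compared because such cells carry class II. Of 20 measured macrophage markers 0 passed, and their summed intensity was 10010 to 10835 at 8 weeks and 9031 to 12285 at 1 week. C1qa, the brightest of them, had a change of -0.20 (adjusted p = 0.539), and 6 of the 20 were below the intensity floor of 108.2 on all 6 arrays. Of 8 T cell and NK cell markers 0 passed, and 4 were below the floor on all 6 arrays. Their sum was 837.1 to 915.1 at 8 weeks and 656.2 to 769.1 at 1 week, without overlap. All 3 arrays of 8 weeks lay above all 3 of 1 week for 22.4% of all genes. Cd3e stayed at or below 38.1 and Cd4 had a change of 0.56 (adjusted p = 0.315). Of 11 B cell genes only Ighg3, an immunoglobulin heavy chain, was higher (0.69, adjusted p = 0.0469, lost after quantile normalization), and the sums were 2294 to 3035 and 1991 to 2355. Cd79a and Ms4a1, B cell surface proteins, had changes of 0.70 and 0.83 with adjusted p of 0.0702 and 0.0869. Among 13 neutrophil genes only Prtn3 was higher, at 130.2, 42.4 and 128.9 against 43.4, 29.3 and 14.4 (0.92 ± 0.23, adjusted p = 0.00965). The part of immune cells in the MHC and GTPase rises was not tested.

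The largest change of all genes tested was that of Hand1. This gene, a transcription factor of the embryonic left ventricle, read 477.5, 550.2 and 630.5 at 8 weeks and 53.6, 55.1 and 78 at 1 week. It rose by 2.47 ± 0.43 or 5.55-fold (adjusted p = 0.000779), but a second, dim probe set changed by 0.49 ± 0.35 and did not pass. The 12 early arrays ran from 145.9 to 393.6, with every 1 week array below them and every 8 week array above. The change of 1 week from the early mean was -1.55 (adjusted p = 0.00862), against 0.93 (adjusted p = 0.168) for 8 weeks. The lower ventricle of the mouse of array F read 313.2, where its upper ventricle read 78. Scx, the tendon and valve factor scleraxis, read 1679.3, 1133.2 and 1358.7 against 604.3, 430.5 and 383.5 (1.48 ± 0.31, adjusted p = 0.003). Its early arrays ran from 582 to 1827.9 and the lower piece of that mouse read 1262.4, and 1 week differed from the early mean by -1.35 (adjusted p = 0.00292). Kif4, a kinesin of dividing cells, read 133.1, 136.5 and 206.1 against 10.6, 28.1 and 42.9 (1.49 ± 0.26, adjusted p = 0.000979). Gadd45b, a stress-induced signalling protein, read 634.4, 294.1 and 358.1 against 252.6, 107.3 and 69.4 (1.38 ± 0.36, adjusted p = 0.0126), with a second probe set at 0.89. Thyn1 and Ddx27, an RNA helicase, completed the 12 largest rises with 1.45 and 1.31. The call on Thyn1 was lost after quantile normalization, and other probe sets of these genes changed by 0.50 and 0.34 without passing.

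**Figure D3:**
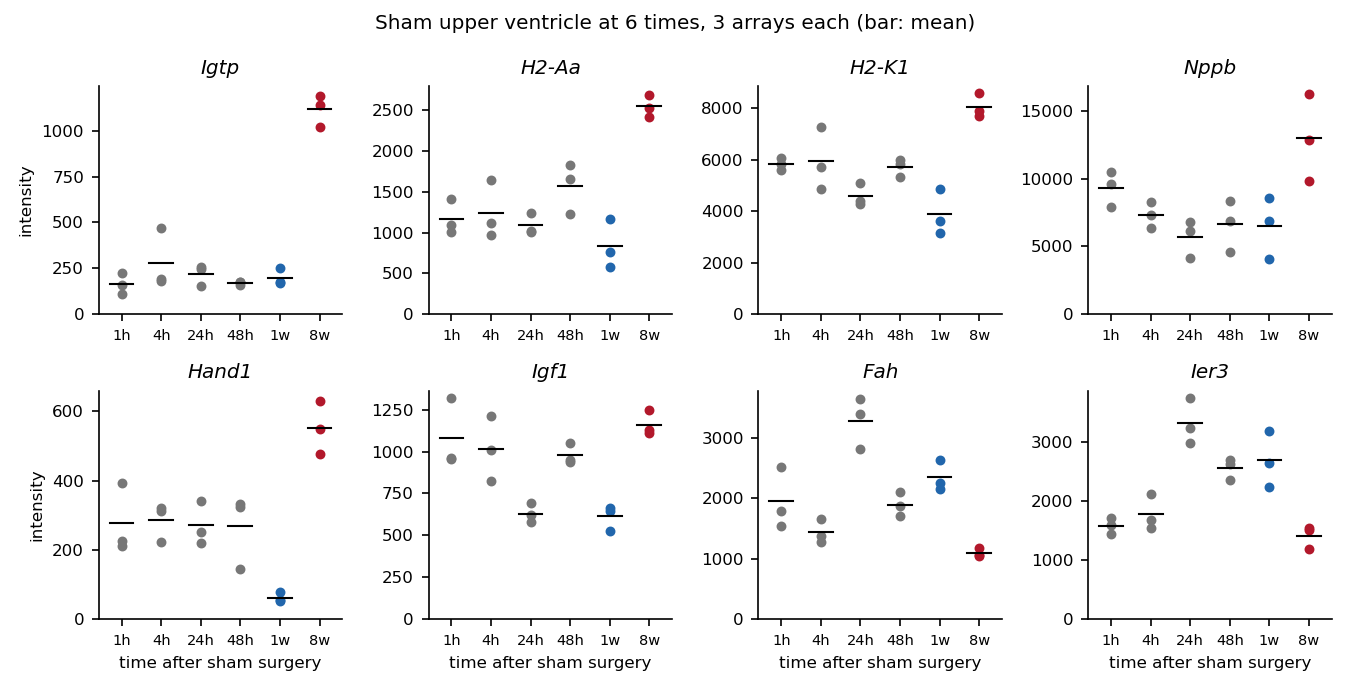
Intensity on each of the 3 upper sham arrays at the 6 times (points, with 1 week in blue and 8 weeks in red) and their mean (bar), for 8 genes. Igtp is high at 8 weeks alone, Hand1 is lowest at 1 week, and Fah and Ier3 are lowest at 8 weeks.

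Among cardiac stress genes the call fell on Nppb, brain natriuretic peptide. It read 16220.6, 12849.1 and 9845.7 at 8 weeks and 4081.9, 6899 and 8566.9 at 1 week. The groups were apart by a narrow gap, between array C and array F, and the change was 1.02 ± 0.28 (adjusted p = 0.0185). The call was lost in a fit of the 6 arrays alone (adjusted p = 0.0627) and without array A or D. Nppa, the atrial peptide, read 1377.4, 1440.4 and 1134.7 against 813.5, 847.5 and 1111.3, a change of 0.50 ± 0.31 without overlap that did not pass (adjusted p = 0.306). Myh7, the beta myosin heavy chain, read 11102.9, 11460.4 and 13391.7 against 18041.2, 5771.5 and 5246.8. Array D alone exceeded the 8 week arrays, and the change of 0.54 ± 0.51 did not pass (adjusted p = 0.533). It ran from 0.23 to 1.11 with 1 array left out. Myh6, the main myosin of the adult mouse ventricle, had a change of 0.07 (adjusted p = 0.932), Acta1, skeletal actin, 0.17 (adjusted p = 0.691) and Atp2a2, the calcium pump of the reticulum, -0.12 (adjusted p = 0.818). Of 22 genes of the fetal and stress list Nppb was the sole member to pass.

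The tissue label was checked against contractile transcripts, which were among the brightest at both times. Of 17 measured cardiomyocyte markers 0 passed, with a median change of 0.05. Their summed intensities were 270931 to 277497 at 8 weeks and 256163 to 287095 at 1 week. The spread was estimated over all 59 arrays, and the SE of Myh6 was 0.41 beside a median SE of 0.178 over genes. Small changes of such a marker could therefore hardly pass. The changes ran from -0.38 for Csrp3 to 0.50 for Nppa. Csrp3 read 9004.2, 8962.3 and 8425 against 12206.8, 11509.2 and 10724.1, without overlap. Among 30 sarcomere genes only Tpm3, a tropomyosin, was higher (0.69 ± 0.17, adjusted p = 0.00913). Atrial markers summed to 3157 to 3571 at 8 weeks and 2228 to 2665 at 1 week with 0 of 7 passing, and Myl7, the atrial light chain, stayed at or below 74.8. Of 31 genes of calcium handling and ion channels, 1 was higher (3.23%) and 3 lower (9.68%), beside 7.53% and 3.04% of all genes. Kcnj8, the pore of the vascular potassium channel that ATP closes, read 485.1, 508.3 and 397.3 against 819.5, 763.7 and 760.5 (-0.71 ± 0.19, adjusted p = 0.0158). Kcnj5, a subunit of the acetylcholine-activated potassium channel, read 26.9, 22 and 35.8 against 71.2, 175.2 and 166.8 (-1.26 ± 0.37, adjusted p = 0.0262), below the floor on every 8 week array. Kcnq1, a repolarizing potassium channel, changed by 0.87 ± 0.23 (adjusted p = 0.0151), whereas its other probe set gave -0.26.

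Genes of the insulin-like growth factor (IGF) system were among those called. Igf1, the growth factor itself, read 1248.3, 1108.6 and 1126.5 at 8 weeks and 647.9, 525.6 and 665 at 1 week. It rose by 0.88 ± 0.19, 1.84-fold (adjusted p = 0.00384), and its second, dim probe set changed by -0.19 ± 0.37. The levels of 8 weeks lay within the early range of 579.8 to 1323.2, and 1 week differed from the early mean by -0.53 (adjusted p = 0.0327). The low level was not particular to 1 week, since the 24 h arrays read 579.8 to 690.7. Igfbp2, an IGF-binding protein, and Dlk1, a Notch-family ligand listed with them, rose by 0.72 and 0.66 (adjusted p = 0.0268 and 0.0159). Ghr, the growth hormone receptor, read 927, 904.4 and 817 against 1349.7, 1140.1 and 1303.7, a change of -0.50 ± 0.16 (adjusted p = 0.0385). A second Ghr probe set read 820.2, 765.1 and 875.4 against 817, 1011 and 927, with overlap. It changed by -0.15 ± 0.16 and did not pass. These 4 genes were the members called among 29 measured (10.3% higher and 3.45% lower, beside 7.53% and 3.04% of all genes). Only Igf1 was called after quantile normalization.

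Of 34 genes of TGF-beta and BMP signalling 3 were higher (8.82%) and 2 lower (5.88%), beside 7.53% and 3.04% of all genes. Tgfb1, the ligand, read 104.2, 197.3 and 38.1 against 152, 344.8 and 352.3, with overlapping groups (-1.11 ± 0.32, adjusted p = 0.0244, or 0.118 in the 6 arrays alone). Eng, an endothelial co-receptor, read 4355.5, 3426.4 and 3988.9 against 5696.9, 5795.1 and 5229.8 (-0.51 ± 0.15, adjusted p = 0.0265), a call lost after quantile normalization (adjusted p = 0.183). Bmp2, a ligand, rose by 0.88 ± 0.21 (adjusted p = 0.00752) from levels of 52.6 or less, and was not tested after quantile normalization. Other, dimmer probe sets of Bmp2 changed by -0.12 and 0.19 without passing. Ltbp3, which holds latent TGF-beta in the matrix, rose by 0.75 ± 0.18 (adjusted p = 0.0076). Endothelial markers summed to 16582 to 17441 at 8 weeks and 19143 to 20001 at 1 week, and Eng was the brightest member of that sum. It was the sole one of 16 to pass, and 0 passed after quantile normalization. The median change of the 16 was -0.12.

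The falls were led by dim genes. Klf2, a flow-responsive factor of endothelium and T cells, read 25.3, 31.8 and 46 at 8 weeks and 237.6, 195.4 and 188.3 at 1 week (-1.66 ± 0.44, adjusted p = 0.0132). Nup54, of the nuclear pore, read 158.4, 84.6 and 83.9 against 418.9, 493.8 and 342 (-1.61 ± 0.35, adjusted p = 0.00459), but the lower piece of the mouse of array F read 58.6. Fzd2, a Wnt receptor, read 35.8, 13.4 and 39.4 against 118.2, 166.9 and 186.8 (-1.44 ± 0.32, adjusted p = 0.00553). Klf2 and Fzd2 were thus below the floor on every 8 week array and above it on every 1 week array. Get4, which helps insert membrane proteins, fell by 1.42 ± 0.28 (adjusted p = 0.00233), and like Klf2, Nup54 and Fzd2 it passed in every alternative. Abcf2, Kcnj5, Ccl2, Mrc2, Atg7, Pqbp1 and P2ry2 made up most of the remainder of the 12 largest falls, between -1.27 and -1.12. Ccl2, the monocyte chemokine, read 124.6, 91.1 and 59.3 against 305.4, 198 and 319 (-1.23 ± 0.41, adjusted p = 0.0476). It was lost when any 1 of the 6 arrays was left out, as were Mrc2, a collagen uptake receptor, and Pqbp1.

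Bright genes that fell included Fah, the last enzyme of tyrosine breakdown, at 1172.5, 1046.3 and 1055.8 against 2155.4, 2245.6 and 2635.7. It fell by 1.07 ± 0.20, 2.1-fold (adjusted p = 0.00189), and the 8 week arrays lay below every early sham array (1276.2 to 3642). Ier3, an immediate early gene that guards against cell death, read 1505.4, 1545.2 and 1197.7 against 2657.6, 3184.6 and 2247.7 (-0.90 ± 0.18, adjusted p = 0.00237). Against the early mean the 8 week change of Ier3 was -0.63 (adjusted p = 0.0192). Of 28 immediate early genes measured, 2 were higher and 2 lower (7.14% each, beside 7.53% and 3.04% of all genes). The list thus did not move in 1 direction. The proteasome list had 4 lower members of 34 and 0 higher, beside 3.04% and 7.53% of all genes. Psmd4, which binds ubiquitin chains, read 1767.1, 1704.8 and 1678.4 against 3195.6, 2532.2 and 2220 (-0.60 ± 0.16, adjusted p = 0.0159). The lysosome list had 4 lower members and 1 higher of 36, beside the same shares of all genes. Ctsa, a protease that protects other lysosomal enzymes, read 1074.7, 996.4 and 901.4 against 1335.1, 1604.1 and 1635.9 (-0.60 ± 0.13, adjusted p = 0.00515). Ei24, a p53 target, fell by 0.47 ± 0.10 (adjusted p = 0.00282). After quantile normalization 2 proteasome and 2 lysosome members were lower. Fah, Ier3, Psmd4, Ctsa and Ei24 were each still called (adjusted p = 0.0045, 0.00912, 0.0363, 0.0131 and 0.0113 by limma after that normalization). The median change of the brightest set of genes was -0.10, and its part in these falls was not tested.

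Energy metabolism showed few changes. Of 25 genes of fatty acid oxidation and uptake, 18 PPAR targets and fasting genes and 29 genes of glucose uptake and glycolysis, 0 passed by limma. Over all genes 7.53% were higher and 3.04% lower. The median changes of these lists were -0.11, -0.04 and -0.12. Pdk4, the fasting-induced brake on glucose oxidation, had a change of 0.19 (adjusted p = 0.795) and Ucp3 one of -0.13 (adjusted p = 0.853). Of 61 genes of oxidative phosphorylation, Atp5g1 was higher and Ndufs4 lower (1.64% each, beside the same shares of all genes). Atp5g1, a subunit of the ATP synthase ring, read 236.6, 380.5 and 258.8 against 97.7, 92.4 and 82.2 (1.29 ± 0.29, adjusted p = 0.00553), with a second probe set at 0.59 ± 0.19. Ndufs4, of complex I, read 214.7, 177.1 and 203.6 against 299.5, 311.9 and 359.4 (-0.60 ± 0.18, adjusted p = 0.0281). Pdha1, of pyruvate dehydrogenase, read 10606.9, 10424.2 and 10515.8 against 15067.6, 15116.5 and 13111.2 (-0.45 ± 0.14, adjusted p = 0.029, lost after quantile normalization).

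Redox and protein-folding genes moved singly. Gpx1, a peroxidase that removes hydrogen peroxide, read 769.8, 772.9 and 830.1 against 478.7, 342.6 and 334.2 (0.97 ± 0.18, adjusted p = 0.00152). Txn1, thioredoxin, moved the other way, at 2695.5, 2425.9 and 2376.9 against 4104.9, 3600 and 3504.1 (-0.57 ± 0.14, adjusted p = 0.0106). Of 24 antioxidant and metallothionein genes 3 were higher (12.5%) and 1 lower (4.17%), beside 7.53% and 3.04% of all genes. Canx, a chaperone of the endoplasmic reticulum, read 800.3, 748.6 and 899.9 against 454.3, 372.3 and 410 (0.91 ± 0.20, adjusted p = 0.00453). Asns, which makes asparagine, rose by 0.62 ± 0.12 (adjusted p = 0.00238) and Slc7a5, an amino acid transporter, by 0.57 ± 0.15 (adjusted p = 0.0149). These were the 3 members called of 25 in the unfolded protein response list (12%, beside 7.53% of all genes), whose median was -0.04. Other, dimmer probe sets of Canx and Asns changed by 0.37 and 0.33 without passing. Of 27 heat shock proteins 0 passed. F7, coagulation factor VII, rose by 0.74 ± 0.15 (adjusted p = 0.0027), with 1 week lower than the early arrays (-0.54, adjusted p = 0.00915). A second, dimmer probe set of F7 changed by 0.37 ± 0.23 without passing.

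Matrix and growth genes gave 1 rise (2.04%) and 2 falls (4.08%) of 49 in the collagen and matrix list, beside 7.53% and 3.04% of all genes. Loxl1, which crosslinks elastin, rose by 0.65 ± 0.16 (adjusted p = 0.0094), while Fbln2 and Lama4, matrix glycoproteins, fell by 0.52 and 0.49 (adjusted p = 0.0187 and 0.0238), the former not after quantile normalization. Col1a1 read 1486, 1541.9 and 1423.8 against 1262.6, 1484.9 and 2598.7, a change of -0.19 (adjusted p = 0.791). Col3a1 had 0.02 (adjusted p = 0.974) and Postn, periostin, 0.36 (adjusted p = 0.427). Array F was the highest of the 1 week arrays for Col1a1, Col3a1 and Postn. Of 22 fibroblast markers only Fbln2 passed, and of 16 matrix proteases 0 did. Of 46 cell cycle genes 6.52% were higher, namely Mki67, Ccnd1 and Lig1 (0.87, 0.55 and 0.55). Mki67 alone was called after quantile normalization, and a second Mki67 probe set changed by 0.11. Of 20 clock genes and outputs, 10% were higher, namely Fkbp5 and Timeless (0.70 and 0.36), Timeless not after quantile normalization. Dbp and Arntl, which oscillate in antiphase through the day, had changes of -0.41 (adjusted p = 0.443) and 0.12 (adjusted p = 0.806).

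**Figure D4:**
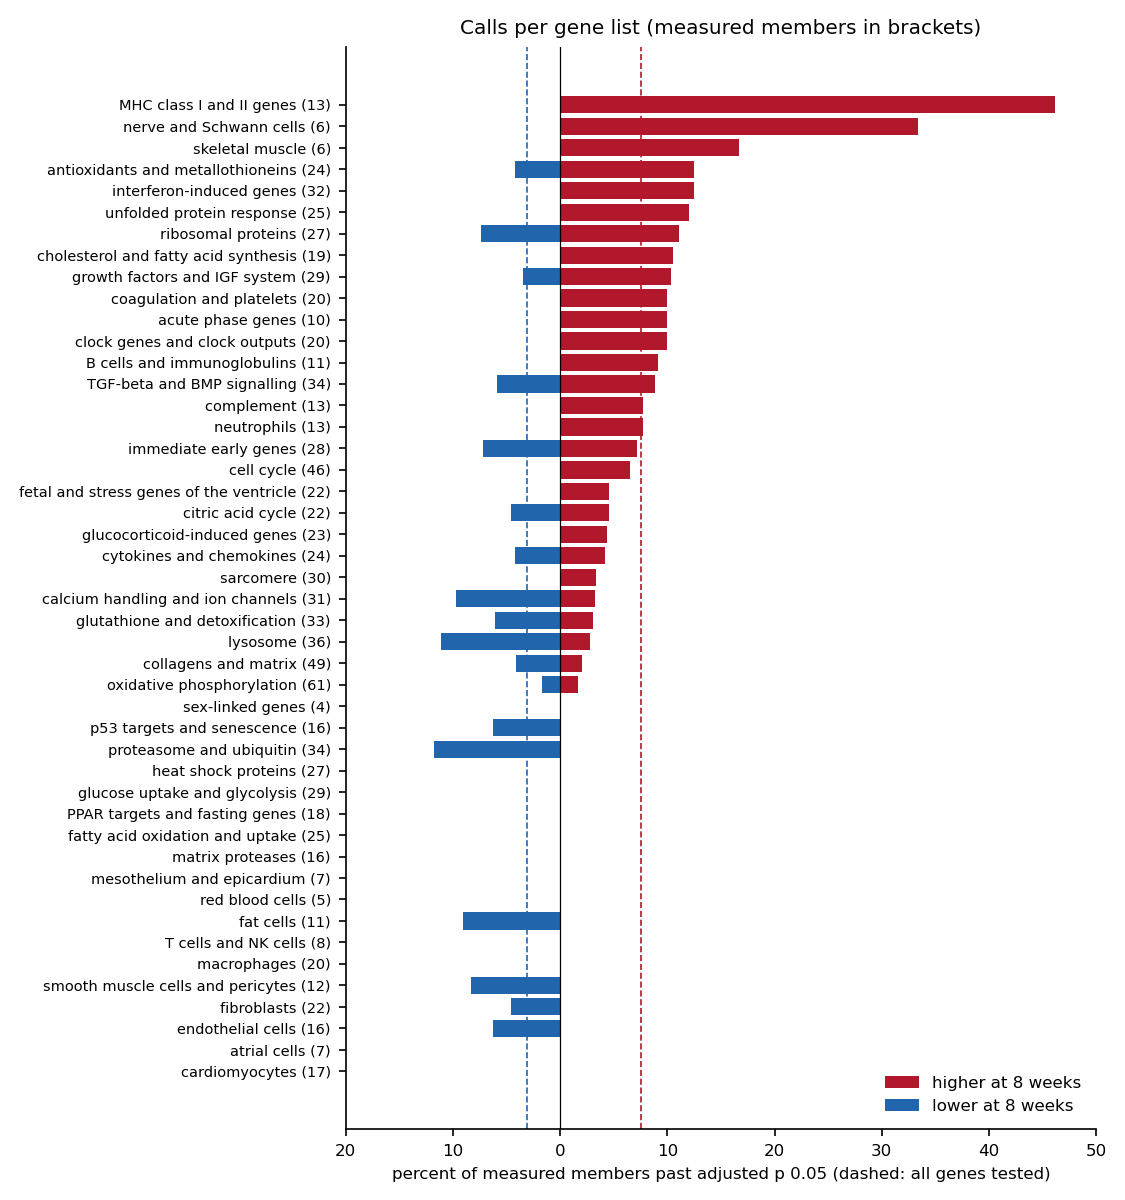
Percent of the measured members of each gene list past an adjusted p of 0.05, with members higher at 8 weeks to the right and lower members to the left, and the number measured in brackets. The dashed lines give the share of all genes tested, 7.53% higher and 3.04% lower, and the MHC list reaches furthest to the right with 6 of 13.

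Some further marker lists held single called members. Of 6 nerve and Schwann cell genes, Mbp, myelin basic protein, and Sox10, a glial transcription factor, were higher (0.65 and 0.54), and neither was called after quantile normalization. Of 5 red blood cell genes and 7 of mesothelium and epicardium 0 passed by limma. The mesothelium and epicardium sum was 501.5 to 594.7 at 8 weeks and 314 to 402.6 at 1 week, without overlap, with 4 of the 7 under the floor on all 6 arrays. The 12 smooth muscle and pericyte markers, of which Kcnj8 alone passed, summed to 8631 to 9338 at 8 weeks and 9458 to 10398 at 1 week, also without overlap. The part of these cells in the results was not tested. Lipe, the hormone-sensitive lipase of fat cells, read 333.4, 435.7 and 430.5 against 783.7, 555.6 and 587.6 (-0.62 ± 0.20, adjusted p = 0.0405), the sole call among 11 fat cell genes. Of 27 ribosomal protein genes 3 were higher (11.1%) and 2 lower (7.41%), beside 7.53% and 3.04% of all genes. Rpl37a read 5353.5, 4785.9 and 5993.8 against 3278.9, 3420.9 and 3273.7 (0.68 ± 0.17, adjusted p = 0.0108), while Rpl10a changed by -0.36 (adjusted p = 0.0165), a call lost after quantile normalization.

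The called genes were placed among the 6 sham times as a description, since a gene called for differing between 8 weeks and 1 week tends to be extreme at either time. Of the 502 higher genes, the mean of 1 week was the lowest of the 6 times in 431 (85.9%) and the mean of 8 weeks was the highest in 335 (66.7%), with both in 276 (55.0%). Of the 203 lower genes, 1 week was the highest in 152 (74.9%) and 8 weeks the lowest in 148 (72.9%), with both in 101 (49.8%). Set against the mean of the 4 early times, 8 weeks had 30 higher and 29 lower genes (0.45% and 0.435%), and 1 week had 102 higher and 208 lower (1.53% and 3.12%). In all, 1 week differed in 4.65% of genes. These comparisons share arrays with that of 8 weeks against 1 week. The total of 59 genes at 8 weeks fell to 13 without array C, 21 without A and 24 without B. The total of 310 at 1 week fell to 17 without array D, 44 without E and 64 without F, and to 140 after quantile normalization. Of the named genes, Igtp, Irgm2, Iigp1, Kif4, Fah, Ier3, Fzd2, Tgfb1, Mrc2, Atg7 and Ctsa were among those called at 8 weeks. Those called at 1 week included Hand1, Scx, H2-T18, H2-K1, Gpx1, Nup54, Get4, Igf1, Asns, Atp5g1, Prtn3, Lbp, F7, C5ar1, Slc7a5, Txn1, Sox10 and Lig1. The early mean pools 4 times that were not alike for every gene. Nup54, Get4 and Igf1 had 24 h means of 383, 241 and 630, near their 1 week means of 418, 234 and 613. Hand1 and Scx had 24 h means of 271 and 1538, against 62.2 and 473 at 1 week. H2-K1 differed by -0.51 at 1 week (adjusted p = 0.0478 by limma) and by 0.55 at 8 weeks (adjusted p = 0.0715). H2-Aa and H2-Ab1 were called at neither time (adjusted p = 0.0751 and 0.149 at 8 weeks).

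The same 2 times were compared in the remote ventricle of infarcted mice, 3 at each time. There 965 genes were higher (14.5%) and 954 lower (14.3%). Of the 502 genes higher in sham, 81 were also higher in remote tissue (16.1%) and 10 were lower. Of the 203 genes lower in sham, 47 were also lower (23.2%) and 26 were higher. The difference between the sham and remote changes passed for 1100 genes (16.5%), with 8.85% above and 7.65% under 0, of which 163 were called in sham. The GTPases had remote changes of 1.01 for Igtp, 0.92 for Irgm2 and 1.04 for Iigp1, none of which passed (adjusted p = 0.0828, 0.071 and 0.161), and their difference from sham did not pass either (adjusted p = 0.166, 0.242 and 0.493). The remote 8 week arrays were uneven, since Igtp read 770.5 and 992.2 in 2 mice but 210.4 in the third. Irgm2 and Iigp1 were likewise lowest in that mouse, at 510.1 and 807.7. H2-Aa had a remote change of 0.42, from 1 week levels of 1621.2, 1628.5 and 4079.4, which lay above all those of sham at 1 week. H2-K1 differed between the tissues, with 1.07 in sham and 0.10 in remote tissue, where it read 7524 to 8310.7 at 1 week already (difference 0.97, adjusted p = 0.0149). Ciita differed likewise (difference 0.69, adjusted p = 0.0259). Hand1 and Igf1 had remote changes of 0.96 and 0.45 that did not pass (adjusted p = 0.0883 and 0.0671). Nppb differed, since remote tissue read 15044.4 to 19392 at 1 week and its change was -0.21 (difference 1.24, adjusted p = 0.0294).

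**Figure D5:**
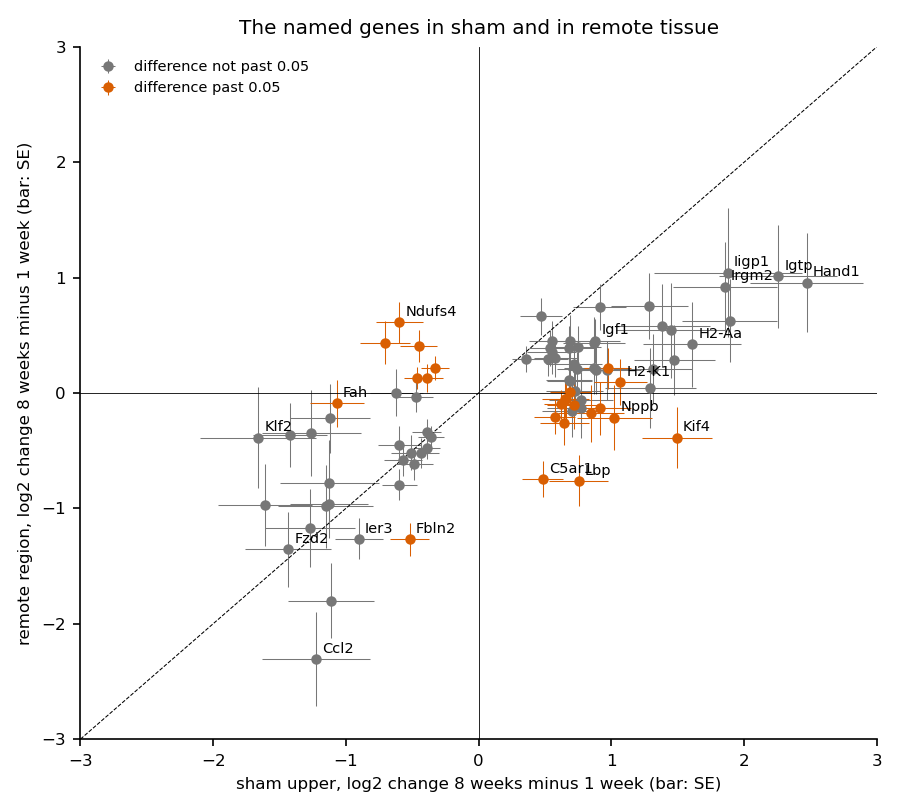
Change from 1 to 8 weeks of the named genes in upper sham tissue (horizontal) and in remote tissue of infarcted mice (vertical), on the log2 scale with SE bars; the dashed line marks equal change. Orange genes, such as Kif4 (1.49 in sham and -0.39 in remote tissue) and Nppb, passed the test of the difference, and grey genes, such as Igtp and Ier3, did not.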

How the data were processed

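Total RNA was measured on 1 array per piece of ventricle, in 6 sham upper samples compared here out of 59. The deposited values are intensity values on a linear scale from 0 to 35489, made by the authors with software that is not named in the sources used here. The fit used R 4.3.3 and limma 3.58.1. Of 12488 probe sets, 10833 with 1 gene covered 8251 genes, each read by its brightest probe set, and 6670 genes reached 108.2, the 40th percentile of values, on 3 arrays. The deposited intensities plus 45.6 (0.25 times their median) were changed to log2. All 59 arrays in 23 groups entered 1 model with the title number as a random block (correlation 0.148), tested on simulated data. With 3 arrays per group, precision is limited by their number (median SE 0.178), and nothing states that the mice are separate, so p-values measure the spread between these samples. Genes named are the 12 largest rises and 12 largest falls among genes that passed with groups apart, up to 3 members per list by adjusted p, a fixed panel, and members of lists described. The comparison, gene lists and promoters were chosen with earlier results of these data known. Alternatives were offsets of 0.05 and 1 times the median, quantile normalization, other filters, every probe set, no replicate block, 18 or 6 arrays in the fit, and each array left out.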

Additional observations from a re-analysis of the deposited data

Results flagged for a closer look

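Results are given here where the change from 1 to 8 weeks differed between sham and remote tissue by limma's test of the difference (adjusted p below 0.05). This held for 1100 genes, and for 28 of the 95 named genes. Each value is the sham change minus the remote change on the log2 scale. Among matrix genes, whose remote levels were high at 1 week, the difference was 2.43 for Postn, 2.39 for Col3a1, 2.14 for Col1a1 and 0.75 for Fbln2. Natriuretic peptides had differences of 1.24 for Nppb and 1.23 for Nppa. Immune and acute phase genes had 0.972 for H2-K1, 0.686 for Ciita, 1.23 for C5ar1, 1.52 for Lbp and 1.05 for Prtn3. The other positive differences were 1.88 for Kif4, 1.02 for Sqle, 0.91 for Mbp, 0.829 for Plg, 0.779 for Slc7a5, 0.758 for Gpx1, 0.717 for Asns, 0.71 for Dlk1 and 0.704 for Loxl1. Negative differences were -1.43 for Dbp, -1.21 for Ndufs4, -1.14 for Kcnj8, -0.98 for Fah, -0.862 for Pdha1, -0.598 for Ei24, -0.549 for Gstp1 and -0.517 for Psmc3. No outlying array was sought by a formal rule within these groups, which hold 3 arrays each.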

How the results depend on the processing

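Quantile normalization moved the share of genes called from 10.6% to 6.27%, that of higher genes from 7.53% to 3.41%, and that of 1 week against the early times from 4.65% to 2.11%; the lower genes, the remote changes and the differences between tissues stayed within 1.5 times. With each of the 6 arrays left out in turn, 2.4% to 7.75% of genes were called, 1.93% to 5.91% as higher and 0.465% to 1.84% as lower. The range was then 0.195% to 0.915% for 8 weeks against the early times, 0.255% to 4.57% for 1 week, 28.1% to 28.4% for remote tissue and 11.8% to 15.1% for the difference between tissues. The other alternatives left each of these counts within 1.5 times of its value. No paired analysis was possible because the groups compared share no title number; with no replicate block, 711 genes (10.7%) were called, 508 higher and 203 lower. The log2 difference of the 3′ to 5′ ratio was -0.17 with beta-actin in place of Gapdh, and -0.07 to -0.04 with single arrays left out. No named gene that was called reversed its direction in the alternatives tried. Of the 83 that passed, 53 no longer did without array C, and after quantile normalization 28 of the 82 still tested did not. Genes near background are limited by the added 45.6, which shrinks their changes, and 3 arrays a group limit what can be called. The cause of these shifts was not tested.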
